A study of Mus musculus with 2 samples.

Results

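The synaptic vesicle fusion genes described here are Snap25, Syt1, Syt2, Vamp1, Vamp2, Stx1a, Cplx1, Cplx2 and Sv2c, 9 of the 25556 genes counted in nuclei of the mouse brainstem. They were chosen by the function of their proteins, with the isoform pairs Syt1 and Syt2, Vamp1 and Vamp2, and Cplx1 and Cplx2, and the rule uses no measured value, though it was written with earlier results of these data known. All 9 had UMIs in both libraries and passed the minimum of 200 UMIs. Single-nuclei RNA sequencing (10x Chromium 3′ v3.1) was performed on flash-frozen brainstem from 1 wild-type (WT) mouse and 1 heterozygous (HET) mouse, so each genotype had 1 library. Both mice were untreated females at post-natal day 41 on a C57Bl6 background, and the WT mouse was a littermate of such HET mice. The HET mouse carried 1 Scn1a A1783V allele and 1 WT allele, a missense knock-in with loss of sodium channel function that models Dravet syndrome. It came from a floxed Scn1a sire and a Sox2-Cre dam, and Sox2-Cre acts in the early embryo, so the allele is not restricted to neurons. Whether either mouse had seizures is not known here.

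Neurons release transmitter when a synaptic vesicle fuses with the membrane of the nerve terminal. Vamp (synaptobrevin) on the vesicle winds together with Snap25 and syntaxin 1 on the membrane into the SNARE complex that pulls the membranes together. Complexins (Cplx) hold that complex ready, synaptotagmin 1 or 2 (Syt1, Syt2) senses calcium and triggers fusion, and Sv2 proteins are vesicle membrane proteins that bind synaptotagmin. In the brainstem and spinal cord many fast-firing neurons use Syt2 and Vamp1, whereas Syt1 and Vamp2 are the main forms in the forebrain.

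The WT library held 9259 nuclei with 70301390 UMIs (unique molecular identifiers, one per captured RNA molecule) and the HET library 9022 nuclei with 66176778 UMIs. The deposited annotation named 16 clusters, 9 of them neuronal (neuron.1 to neuron.9), with 6118 WT and 5393 HET neuronal nuclei. Subclusters are given below as the cluster with the subcluster number after a slash. Levels are given as CPM, the gene's UMIs per 1000000 UMIs of the group of nuclei, with 95% exact Poisson intervals. None of the intervals covers more than counting error. Each genotype had 1 library, so there is no replicate error, no test was possible, and genotype cannot be told apart from animal or library. The libraries shared 23 cell barcodes, 0.255% of those of the HET library. Scn1a stood at 430 CPM in WT and 493 CPM in HET neuronal nuclei, which does not check the labels, since a missense allele is still transcribed. Neuronal nuclei in HET were somewhat deeper, with a median of 8390 UMIs against 7729 in WT.

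Some clusters stood apart or were unequally filled. The cluster neuron.9 held 35 WT and 2 HET nuclei with a median of 2034 UMIs and 6.64% mitochondrial reads, and 23 of the 37 had a neuronal second label. Its nuclei also gave 1897 CPM of the myelin gene Mbp and 4668 CPM of the choroid plexus gene Ttr. Subcluster 21, to which they belong, also held 38 nuclei of neuron.1 and 49 of neuron.5. Neuron.6 held 120 WT and 5 HET nuclei, and neuron.5 held 42 WT and 332 HET nuclei.

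The promoters of Syt2, Vamp1, Cplx1 and Sv2c are shown because Syt2, Vamp1 and Cplx1 ranked alike across neuronal subclusters and Sv2c went with Syt2 and Vamp1, as described below. Each sequence is RefSeq on GRCm38.p6, 5′ to 3′ on the gene's strand, and covers the 150 bases before the annotated start. Capitals mark GGGCGG or its reverse complement CCGCCC, the core of a GC box. The Syt2 stretch lies at chr1:134646462-134646611 (+), the Vamp1 stretch at chr6:125215431-125215580 (+), the Cplx1 stretch at chr5:108550028-108550177 (-) and the Sv2c stretch at chr13:96132578-96132727 (-).
Syt2: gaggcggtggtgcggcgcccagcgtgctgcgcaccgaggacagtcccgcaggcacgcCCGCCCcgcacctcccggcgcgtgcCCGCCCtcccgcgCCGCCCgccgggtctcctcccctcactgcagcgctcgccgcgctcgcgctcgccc
Vamp1: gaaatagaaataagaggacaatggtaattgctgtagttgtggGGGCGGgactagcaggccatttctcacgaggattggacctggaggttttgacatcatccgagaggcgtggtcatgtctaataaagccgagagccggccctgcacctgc
Cplx1: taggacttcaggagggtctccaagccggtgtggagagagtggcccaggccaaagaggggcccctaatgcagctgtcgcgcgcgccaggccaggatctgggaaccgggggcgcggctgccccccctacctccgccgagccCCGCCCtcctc
Sv2c: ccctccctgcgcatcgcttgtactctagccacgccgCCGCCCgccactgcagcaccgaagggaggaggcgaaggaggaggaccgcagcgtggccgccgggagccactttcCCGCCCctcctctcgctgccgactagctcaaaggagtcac
The Syt2 stretch held 3 such cores, the Sv2c stretch 2, and the Vamp1 and Cplx1 stretches 1 each. The full RefSeq promoter entries run from 250 bases before to 50 after the start. The G and C content of the entry was 74.3% for Syt2, 71.7% for Sv2c, 67% for Cplx1 and 51.7% for Vamp1, and the median of all 32851 entries was 52.7%. Over these windows, 7 of 9 entries of the members (6 of the 7 genes with an entry) held GGGCGG on either strand, as did 35.7% of all entries. The Cplx2 entry held none. Snap25 and Vamp2 were not matched. The Syt2 entry also held AAGGTCA on the other strand, a motif found in 4.72% of entries, and no member's entry held TATAAA, found in 13.6%. These are matches of letters and not shown binding sites.

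The genes differ widely in span, and nuclear RNA holds unspliced transcripts, so levels are compared between genes per length here. The isoform shares and UMI ratios given below are not scaled to length. They compare groups of nuclei and do not rank the genes of a family. In neuronal clusters Snap25 gave 9.22 CPM per kb of gene span, Vamp2 7.66, Syt1 2.59, Cplx1 2.29, Cplx2 2.19, Vamp1 1.92, Syt2 1.62, Sv2c 0.911 and Stx1a 0.437. Per kb of exon the order was different, with Syt1 at 160 CPM, Snap25 at 93.6, Cplx1 at 32.9 and Syt2 at 24.5. The other 5 members ranged from 4.53 CPM per exonic kb for Stx1a to 16.7 for Sv2c. Snap25 and Syt1 thus led the exonic scale, and Vamp2 passed Vamp1 on both scales although it had fewer UMIs. The span of Cplx2 depends on the annotation, since the RefSeq start lies 68.8 kb upstream of the GENCODE one used here.

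Snap25 (chr2:136713453-136782428), which supplies a pair of the helices of the SNARE complex, varied little across neuronal clusters. Leaving out neuron.9, its level ran from 443 CPM in neuron.6 to 970 CPM in neuron.4, a 2.19-fold range. Neuron.4 and neuron.5 (964 CPM) could not be ordered by their intervals. Neuron.7, neuron.1, neuron.8 and neuron.2 lay between 558 and 617 CPM, each overlapping the next. Neuron.4 and neuron.5 were rich in Slc17a7, the vesicular glutamate transporter VGLUT1, at 125 and 165 CPM. Neuron.5 also held the granule cell gene Gabra6 at 376 CPM.

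Syt1 (chr10:108497650-109010982) and Syt2 (chr1:134646677-134762593), the calcium sensors, often had opposite patterns. Syt1 was highest in neuron.7, at 4394 CPM (4258 to 4534; 4450 in WT and 4321 in HET). Syt2 was lowest there, at 26.8 CPM (17.2 to 39.9; 29.5 in WT and 23.2 in HET), which is below its 42.1 CPM in non-neuronal nuclei. Neuron.7 was marked by the serotonergic genes Tph2 at 1298 CPM and Slc6a4 at 709 CPM. Syt1 followed at 3034 CPM in neuron.4, 2976 in neuron.6 and 2303 in neuron.5, then 1519 in neuron.2, 1152 in neuron.1, 933 in neuron.8 and 636 in neuron.3. Only neuron.4 and neuron.6 overlapped in that order. Syt2 was highest in neuron.3, at 307 CPM (293 to 323; 264 in WT and 328 in HET), followed by neuron.8 at 252 and neuron.4 at 233, whose intervals overlapped. Its level was 183 CPM in neuron.1, 136 in neuron.2, 112 in neuron.6 and 106 in neuron.5. Neuron.8 carried the cholinergic genes Chat (158 CPM) and Slc5a7 (243 CPM), and neuron.4 had high levels of both synaptotagmins. Part of Syt2 (7936 bases) overlaps Ppp1r12b on the opposite strand. Vamp1 overlaps Tapbpl (7928 bases) and Cd27 (4389 bases), and Sv2c overlaps Gm17190 (1178 bases), also on the opposite strand. On the same strand, Syt1 overlaps Gm5136 (1397 bases) and Sv2c overlaps Gm20075 (2161 bases). Whether the counting used strand is not given in the sources used here.

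The share of Syt2 in the UMIs of the pair does not use the library total, but it also depends on Syt1. Neuron.4, above neuron.1 and neuron.2 by Syt2 level, fell below both by share. The Syt2 share was 12.3% in all neuronal nuclei, 32.6% in neuron.3 (31.3 to 33.9, exact Clopper-Pearson), 21.3% in neuron.8 and 13.7% in neuron.1. It was 8.23% in neuron.2, 7.13% in neuron.4, 4.4% in neuron.5, 3.64% in neuron.6 and 0.606% in neuron.7. The share also varied within clusters. In neuron.3 it was 28.6% in neuron.3/13, which expressed the glycine transporter gene Slc6a5 at 221 CPM, and 59.0% (55.1 to 62.8) in neuron.3/27, which expressed Slc17a6 (VGLUT2) at 131 CPM and Slc6a5 at 5.28 CPM. Over both libraries, neuron.3/27 was the one subcluster of the 21 with more Syt2 than Syt1 UMIs, 380 against 264. The share in neuron.3/27 was 60.5% (56.5 to 64.4) in its 100 HET nuclei. In its 13 WT nuclei it was 27.6% (12.7 to 47.2), from 8 of 29 UMIs. Its Syt1 level, 199 CPM, was 22-fold below that of neuron.7. In neuron.2, both subclusters expressed Slc17a6 (139 and 174 CPM), yet the share was 2.16% in neuron.2/12 and 14.3% in neuron.2/14. In neuron.1 it ran from 8.96% in neuron.1/0 to 22.2% in neuron.1/1.

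Vamp1 (chr6:125215551-125245964) and Vamp2 (chr11:69088490-69092384), the vesicle SNAREs, varied little. Without neuron.9, Vamp1 ranged from 41.3 CPM in neuron.7 to 72.9 CPM in neuron.3 (1.77-fold) and Vamp2 from 24.8 CPM in neuron.3 to 35.6 CPM in neuron.5 (1.43-fold). Neighbouring clusters overlapped throughout both orders. The share of Vamp1 was 66.2% in all neuronal nuclei, and outside neuron.9 it was highest in neuron.3, at 74.6% (70.6 to 78.3), and lowest in neuron.6, at 59.1% (50.2 to 67.6). Neuron.2/12 again differed from neuron.2/14, with 56.1% against 66.9%. In neuron.9, Vamp1 stood at 345 CPM (32 UMIs), Vamp2 at 334 CPM (31 UMIs) and Cplx1 at 453 CPM (42 UMIs), each separate from every other neuronal cluster. Snap25 was also highest there, at 1423 CPM, beside Pvalb at 711 CPM and Nefm at 830 CPM. The part of low depth, mitochondrial reads and glial RNA in these levels was not tested.

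Stx1a (chr5:135023482-135051100), the membrane syntaxin, was the least counted member, with 12.1 CPM in neuronal nuclei. It was highest in the serotonergic neuron.7, at 35.7 CPM (32 UMIs; 43.3 CPM in WT and 25.8 in HET), then in neuron.8 at 23.4 CPM and neuron.2 at 18.6 CPM. It was 12.5 CPM in neuron.1 and 2.50 CPM (13 UMIs) in neuron.3, a 14.3-fold range. The lowest of these values lies below the 7.65 CPM of non-neuronal nuclei. In the subclusters of neuron.2 its level was 31.1 CPM in neuron.2/12 and 7.2 CPM in neuron.2/14.

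Cplx1 (chr5:108518554-108550024) and Cplx2 (chr13:54371349-54383917), the complexins, differed in their order over the clusters. Outside neuron.9, Cplx1 was highest in neuron.3, at 101 CPM (92.4 to 110), and lowest in neuron.7, at 34.6 CPM, and neuron.2, at 45 CPM. Cplx2 was highest in neuron.6, at 114 CPM (98.2 to 131), and in neuron.7, at 90.4 CPM (92.6 in WT and 87.6 in HET). It was lowest in neuron.8, at 4.55 CPM (7 UMIs), and neuron.3, at 7.31 CPM, both below the 13.5 CPM of non-neuronal nuclei. With a 25.0-fold range, which rests on those 7 UMIs at its low end, Cplx2 was the most uneven member across these 8 clusters. Across 20 subclusters outside neuron.9, Sv2c ranged further, 50.3-fold, from 1 UMI in neuron.5/33. Stx1a fell to 0 CPM in that subcluster. The share of Cplx1 was 94.6% in neuron.8, 93.2% in neuron.3, 73.9% in neuron.1, 60.3% in neuron.4, 50.3% in neuron.5, 37.8% in neuron.6 and 27.7% (19.6 to 36.9) in neuron.7. In neuron.2 the share of neuron.2/14, 91.4%, was far above that of neuron.2/12, 56.6% (46.6 to 66.2).

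Sv2c (chr13:95954594-96132577), one of 3 Sv2 genes, was high in neuron.8, at 324 CPM (296 to 354; 318 in WT and 356 in the 9 HET nuclei), and in neuron.3, at 213 CPM. It lay between 156 and 169 CPM in neuron.1, neuron.2 and neuron.6, and at 45.8 CPM in neuron.4, 41.1 CPM in neuron.5 and 30.1 CPM in neuron.7. In neuron.4 and neuron.5, Sv2b took its place in the family, at 461 and 448 CPM. The share of Sv2c in the UMIs of Sv2a, Sv2b and Sv2c was 41.1% in all neuronal nuclei. It was 67.9% in neuron.1/9, which expressed Slc6a5 at 167 CPM, 64.5% in neuron.2/14, 58.5% in neuron.8, 7.71% in neuron.4 and 6.52% in neuron.5.

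Across the neuronal subclusters, Syt2, Vamp1 and Cplx1 ranked alike. Over the 18 subclusters of at least 30 nuclei that are not subcluster 21, the Spearman correlation of log2(CPM + 1) was 0.76 for Syt2 and Vamp1, 0.74 for Syt2 and Cplx1, and 0.60 for Vamp1 and Cplx1. Sv2c went with Vamp1 (0.64) and Syt2 (0.57), and less with Cplx1 (0.30). Syt1 and Syt2 were at -0.68, Syt1 and Cplx2 at 0.74, and Cplx2 and Syt2 at -0.62. With the 3 parts of subcluster 21 included (21 points), the value was 0.54 for Syt2 and Vamp1, 0.57 for Syt2 and Cplx1, 0.56 for Vamp1 and Cplx1, 0.42 for Sv2c and Vamp1, 0.67 for Sv2c and Syt2, and 0.21 for Sv2c and Cplx1. It was -0.42 for Syt1 and Syt2, 0.37 for Syt1 and Cplx2, and -0.65 for Cplx2 and Syt2. Subclusters share libraries and differ in depth, so these values are descriptions only.

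**Figure D1:**
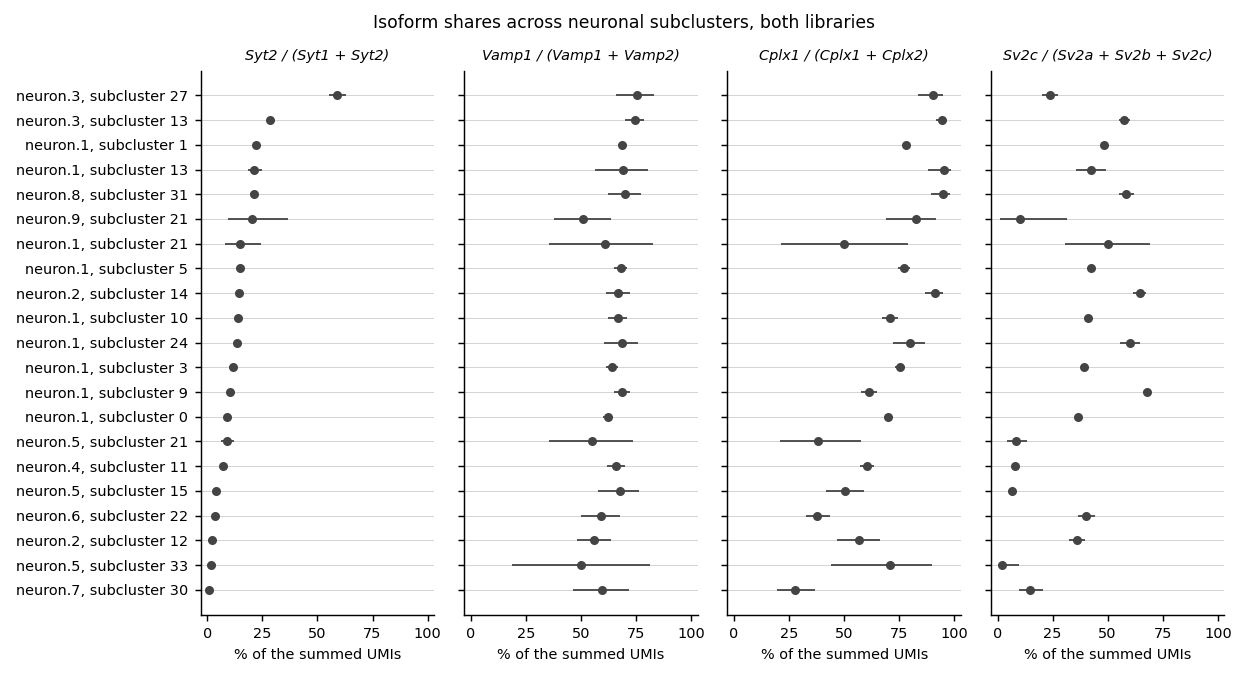
Share of one isoform in the summed UMIs of its family in each of 21 neuronal subclusters, both libraries together, ordered by the Syt2 share. Points are percentages and bars are 95% Clopper-Pearson intervals. The Syt2 share runs from 0.606% in neuron.7/30 to 59.0% in neuron.3/27 (27.6% in WT, 60.5% in HET), and the Vamp1 share stays between 50% and 75.5%.

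Among 10613 genes compared over the 21 subclusters, the 5 ranked most like Syt2 were Gm17171 (0.95), Cep83 (0.92), Etl4 (0.92), Flt3 (0.91) and 9430037G07Rik (0.90). For Vamp1 they were Nacc2 (0.90), BC005624 (0.88), Ndufv1 (0.87), Clec2l (0.85) and Trnp1 (0.84). For Sv2c they included the glycine receptor gene Glra1 (0.89), Gm12236 (0.88), Larp1b (0.84) and Ctnnbl1 (0.84). For Cplx2 they were Dusp3 (0.83), Ccni (0.82), Abhd16a (0.79), Mapre2 (0.79) and Nrip2 (0.78).

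Within single nuclei, both synaptotagmins were often found together. The 9115 neuronal nuclei with at least 5000 UMIs were thinned to 5000 UMIs each, which left out 2396 shallower ones, 1517 in WT and 879 in HET. Syt1 alone was found in 46.4%, both in 45%, Syt2 alone in 4.13% and neither in 4.44%. WT and HET differed by less than 2 percentage points in each class, and these values also vary with the random draw. Unthinned, 95.1% of these nuclei had a Syt1 UMI and 64.7% a Syt2 UMI. The oligodendrocyte and astrocyte clusters had medians of 2807 and 3165 UMIs. Of their 4131 and 1288 nuclei whose second label named the same type, only 547 had at least 5000 UMIs and were treated alike. These 547 deeper nuclei (median 6124 UMIs against 9336) had a Syt1 UMI in 29.2% (35.6% unthinned) and a Syt2 UMI in 13.9% (18.3%). How much of this is free RNA of other cells was not tested.

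Syt2 alone was found in 22.7% of the nuclei of neuron.3 and in 0 of 433 nuclei of neuron.4, which allows a share of up to 0.848% (Clopper-Pearson). Syt1 alone was found in 86.7% of 75 nuclei of neuron.7, where 9 nuclei held both and 1 held Syt2 alone. Syt2 was thus found there no more often than in those oligodendrocyte and astrocyte nuclei. Stx1a, Cplx1, Vamp1 and Sv2c differed between these classes of nuclei. Stx1a was at 16.7 CPM in nuclei with Syt1 alone, 5.32 CPM with Syt2 alone and 10.4 CPM with both. Cplx1 was at 57.5, 83.0 and 73.9 CPM, Vamp1 at 49.0, 69.7 and 65.2 CPM, and Sv2c at 119.6, 147 and 177 CPM in the same order. Genes of fast-firing neurons also differed. The potassium channel gene Kcna1 was at 94.3, 166 and 167 CPM, and Pvalb, which codes for a calcium buffer, at 16.7, 43.1 and 23.6 CPM. Vamp2, at 31.2, 29.8 and 31.0 CPM, did not follow this order. For Cplx1, Vamp1 and Sv2c, the intervals of nuclei with Syt1 alone and Syt2 alone overlapped in WT and were separate in HET. Neuron.3 held 95 of the 376 nuclei with Syt2 alone and 66 of the 4232 with Syt1 alone. The part of library and cluster in these differences was not tested.

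A split of neuronal nuclei by transmitter genes, chosen with earlier results of these data known, asked for at least 5 UMIs of one class and 5 times those of the other. It gave 359 glutamatergic nuclei (median 16097 UMIs) and 1892 inhibitory nuclei (median 11952.5), of which 478 were with Slc6a5 and 317 without it by the same rule. Syt1 was at 1794 CPM in glutamatergic and 1168 CPM in inhibitory nuclei, and Sv2b at 270 and 106 CPM. Cplx2 was at 35.1 and 21 CPM and Sv2c at 164 and 232 CPM. Neuron.4, with its high Syt1 and Sv2b, held 24.2% of the glutamatergic and 0.0529% of the inhibitory nuclei. Inhibitory nuclei with Slc6a5, the gene of glycine neurons, had a Syt2 share of 19.1% (18.5 to 19.8), against 8.29% (7.54 to 9.09) without it. The Cplx1 share was 88.1% against 66.8%, the Vamp1 share 71.5% against 55.8%, and the Sv2c level 298 against 127 CPM. The Stx1a level went the other way, 6.97 against 14.6 CPM. The nuclei with Slc6a5 were deeper, with a median of 17968 UMIs against 9022, and 13.6% of them were in neuron.3, against 1.58% of those without it. The part of depth and cluster in these differences was not tested.

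Outside neurons the members fell into different groups. In the 5969 non-neuronal nuclei whose second deposited label named the same type (median 2837 UMIs), Syt1 was at 115 CPM, 8.61% of its neuronal level. Rbfox3, a neuronal nuclear gene, was at 10.6% of its own, Sv2c at 13.9%, Snap25 at 20.4% and Syt2 at 22.4%. Cplx1 was at 37.1%, Cplx2 at 49.2%, Stx1a at 63.4% and Vamp1 at 85.4%. Vamp2 was higher outside neurons, at 47.7 CPM (44.7 to 50.8) against 29.8 CPM (28.8 to 30.8), or 160%. Of nuclei thinned to 1000 UMIs, 4.94% of non-neuronal and 3.26% of neuronal nuclei had a Vamp2 UMI (14.2% and 24.0% unthinned). For Snap25 it was 12.9% and 43.5% (32.8% and 94.2% unthinned). The neuronal transporter genes Slc17a6 and Slc32a1 stood at 52.9% and 78.6% of their neuronal CPM.

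The ratios between members differed outside neurons as well. For each Syt1 UMI there were 1.13 Snap25 UMIs (1.07 to 1.20) in non-neuronal nuclei and 0.478 in neuronal nuclei. The ratio of Syt2 to Syt1 was 0.367 against 0.141. Among the glia, Vamp1 over Syt1 was 0.652 (0.563 to 0.754) in astrocytes and 0.375 (0.340 to 0.412) in oligodendrocytes, so these UMIs did not keep a single ratio in all types. Vamp1 reached 67.3 CPM (60.0 to 75.2) in astrocytes, 115% of its neuronal level, and 42.7 CPM in oligodendrocytes. How much of these counts is free RNA was not tested.

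**Figure D2:**
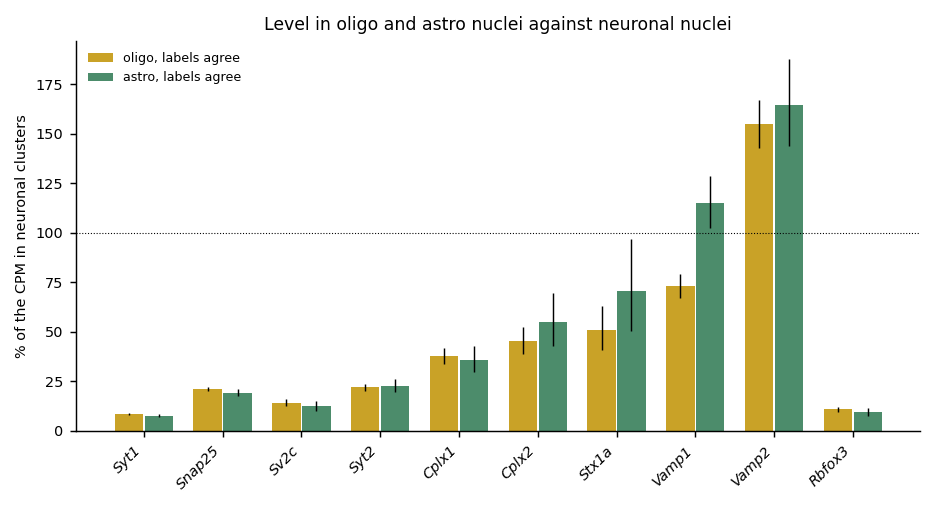
Level of the 9 genes and of Rbfox3 in oligodendrocyte (yellow) and astrocyte (green) nuclei, in percent of the neuronal CPM, with 95% Poisson intervals of the glial count. Syt1 is at 8.56% in oligodendrocytes and 7.75% in astrocytes, Vamp2 is at 155% and 165%, and Vamp1 is above 100% in astrocytes.

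Between the genotypes no member moved far. Counting an absolute log2 ratio of CPM (HET over WT) of at least 0.5 as a difference, 0 of 9 members were higher in HET and 0 of 9 lower, both over all nuclei and in neuronal clusters. Of all genes with at least 200 UMIs, 7.87% were higher and 16.8% lower over all 16347 in all nuclei, and 7.46% were higher and 15.5% lower over 15352 in neuronal clusters. By sign alone, 5 members were higher and 4 lower in HET neuronal nuclei, where 39.2% of all genes were higher. The members' median log2 ratio was 0.00067 there, and that of all genes -0.095.

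Snap25 went from 584 CPM in WT to 694 CPM in HET neuronal nuclei, a log2 ratio of 0.25 (0.23 to 0.27). Syt1 went from 1249 to 1423 CPM (0.19, 0.17 to 0.20) and Syt2 from 175 to 201 CPM (0.20, 0.16 to 0.24). Sv2c went from 158 to 167 CPM (0.085, 0.043 to 0.13). These 4 were the members above WT beyond counting error. Vamp1, at 58.8 and 58.1 CPM (-0.016), and Cplx1, at 72.0 CPM in both (0.00067), had intervals around 0. The remaining 3 were below WT. Vamp2 went from 32.7 to 26.6 CPM (-0.30, -0.40 to -0.20), Stx1a from 13.1 to 10.9 CPM (-0.27, -0.42 to -0.11) and Cplx2 from 29.3 to 25.6 CPM (-0.19, -0.30 to -0.091). Over all nuclei the same members stood above and below 0 beyond counting error, from Snap25 at 0.21 (516 to 597 CPM) to Stx1a at -0.33 (12.6 to 10.0 CPM).

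Gene span moved with these ratios. In neuronal clusters, the quintile of all genes with the shortest span (up to 8.42 kb) had a median log2 ratio of -0.38, and the next quintiles -0.21, -0.13, -0.047 and, from 82.1 kb, 0.10. Vamp2 spans 3.9 kb and Cplx2 12.6 kb, in the first and the second quintile, and Vamp1, Stx1a and Cplx1 span 27.6 to 31.5 kb, in the third. Snap25 spans 69.0 kb, in the fourth, and Syt2 (116 kb), Sv2c (178 kb) and Syt1 (513 kb) lie in the longest quintile. Sv2c, at 0.085, lay close to the median of its quintile (0.10), Snap25, at 0.25, lay above its own (-0.047), and Stx1a, at -0.27, lay below its own (-0.13). Cplx2, at -0.19, lay close to the median of the second quintile (-0.21) with the GENCODE start, but from its RefSeq start it would span 81.4 kb and belong to the fourth quintile, whose median was -0.047. The part of gene span in the members' ratios was not tested.

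**Figure D3:**
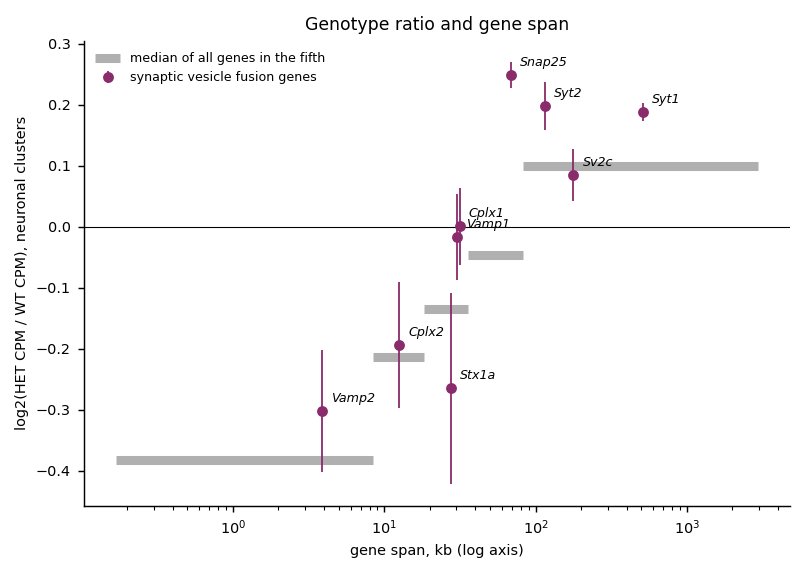
Log2 ratio of HET to WT CPM in neuronal clusters for the 9 genes (points, with 95% intervals) against gene span in kb on a log axis. Grey bars are the medians of all genes in quintiles of span. The bars rise from -0.38 to 0.10, and the members run from Vamp2 at 3.9 kb and -0.30 to Snap25 at 69.0 kb and 0.25.

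Snap25 was the member whose direction was shared by the most subclusters. Of the 13 neuronal subclusters with at least 30 nuclei in each library, Snap25 was higher in HET in 13, with an interval above 0 in 11. It was farthest from 0 in neuron.1/1, at 612 CPM in WT and 810 CPM in HET (0.40, 0.36 to 0.45). Syt2 was higher in HET in 11 of 13 (8 intervals above 0) and Sv2c in 10 of 13 (7 above 0). Sv2c was again farthest apart in neuron.1/1 among intervals that left out 0, at 188 and 295 CPM (0.65, 0.57 to 0.73). Neuron.1/1 had 1714 WT nuclei with a median of 6757.5 UMIs and 511 HET nuclei with a median of 11265 UMIs. The part of this depth in its ratios was not tested.

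Vamp2 was lower in HET in 9 of 13 subclusters, with an interval below 0 in 4, all of them in neuron.1. Stx1a was lower in 7 of 10 (2 below 0), from 11.4 to 5.50 CPM in neuron.1/1 (-1.05, -1.59 to -0.54). Vamp1 was higher in 8 of 13, and all 13 intervals held 0. Cplx1 had 1 interval above 0, in neuron.2/12, and 2 below, in neuron.1/3 and neuron.2/14. Cplx2 was lower in 7 of 12 (3 below 0), from 51.1 to 32.2 CPM in neuron.1/9 and from 63.2 to 45.3 CPM in neuron.4.

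Syt1 differed in direction between clusters. It was higher in HET in neuron.1, at 1094 and 1222 CPM (0.16), and in neuron.4, at 2714 and 3161 CPM (0.22). It was lower in HET in neuron.3, at 772 and 572 CPM (-0.43, -0.54 to -0.33), and in neuron.5, at 2759 and 2247 CPM (-0.30). Within neuron.3/13, however, the levels were 809 and 769 CPM (-0.072, -0.18 to 0.033), and within neuron.5/15 they were 3006 and 2787 CPM (-0.11, -0.26 to 0.049, with 33 WT nuclei). The other subcluster of neuron.3, neuron.3/27 with its low Syt1, held 13 WT and 100 HET nuclei. The part of this makeup in the ratios was not tested. The Syt2 share of neuron.3 was 25.4% in WT and 36.4% in HET, and within neuron.3/13 it was 25.4% and 30.7%.

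**Figure D4:**
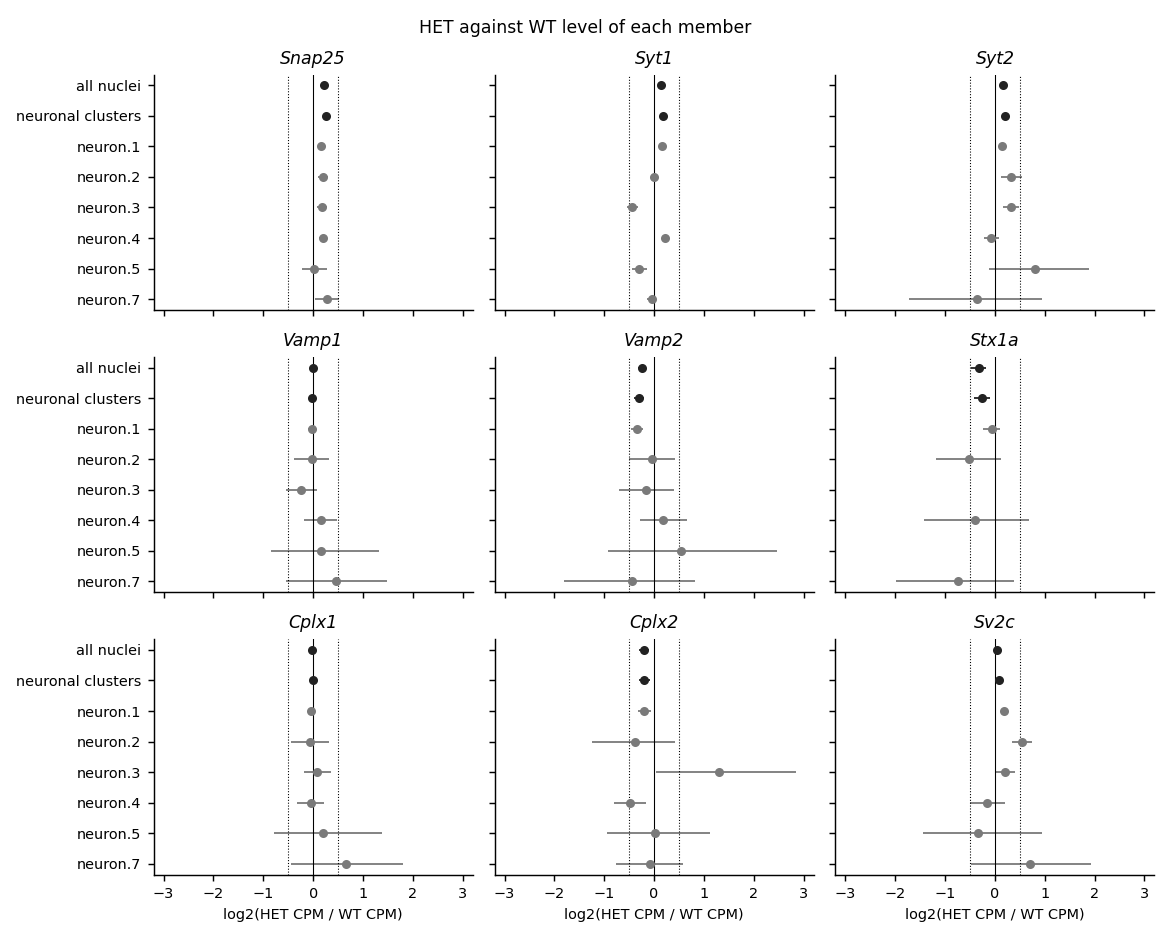
Log2 ratio of HET to WT CPM of each gene over all nuclei, in neuronal clusters together (both black) and in each neuronal cluster with at least 30 nuclei in both libraries (grey). Bars are 95% intervals and dotted lines mark -0.5 and 0.5. No black point passes a dotted line, Snap25 is above 0 in 6 of 6 clusters, and Syt1 lies on both sides. Stx1a had under 20 UMIs in neuron.3 and neuron.5 and is not drawn there.

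Pooled over neuronal clusters, the isoform shares differed by under 5 percentage points between the libraries. The Syt2 share was 12.3% in WT and 12.4% in HET, a difference of 0.077 points (-0.24 to 0.39). Within some subclusters it differed more. It was higher in HET in neuron.1/9, at 9.40% and 11.4%, and in neuron.1/10, at 12.7% and 15.3%. It was lower in HET in neuron.4, at 8.16% and 6.78%. With equal weights of subclusters the difference (HET minus WT) was 1.42 points. Neuron.1/1, with its high Syt2 share, held 1714 WT and 511 HET nuclei. The part of this makeup in the pooled Syt2 share was not tested. The Vamp1 share was 64.2% in WT and 68.6% in HET (4.4 points, 2.53 to 6.28), and the Cplx1 share 71.1% and 73.8% (2.69, 1.02 to 4.35). The Sv2c share was 42.0% in WT and 40.2% in HET (-1.81, -2.73 to -0.90) over all neuronal clusters, but within neuron.1 it was 43.2% and 46.6%, and within neuron.2 47.2% and 60.6%. Neuron.4 and neuron.5, with their low Sv2c share, held 339 and 332 HET nuclei and 114 and 42 WT nuclei.

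The other genes of the release machinery, a longer list than the members, ran from -0.61 to 0.48 in neuronal clusters. Of a list of 48 (other SNAREs, synaptotagmins, priming and active zone proteins, Sv2, synapsins), 45 had at least 200 UMIs in neuronal clusters. By sign, 25 were higher and 20 lower in HET, with a median log2 ratio of 0.052. None was past 0.5 above WT and 5 of the 45 were past it below, beside 7.46% and 15.5% of all genes. The highest were the synaptotagmin gene Syt13, at 34.6 and 48.3 CPM (0.48), Sv2b, at 104 and 143 CPM (0.46), and the synapsin gene Syn3, at 302 and 385 CPM (0.35). The lowest were Vamp3, a SNARE of endosomes, at 12 and 7.87 CPM (-0.61), and the synaptogyrin genes Syngr3, at 44.5 and 30.3 CPM (-0.56), and Syngr1, at 60.3 and 41.7 CPM (-0.53). Doc2a and Doc2b, both at -0.52, complete the 5 and were named after their values were seen. Syt13, Sv2b and Syn3 span 41.0, 194 and 444 kb, and Vamp3, Syngr3 and Syngr1 span 10.7, 4.86 and 28.2 kb. The Sv2 gene Sv2a was at 114 and 106 CPM (-0.097).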

How the data were processed

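Nuclei from 1 WT and 1 HET brainstem were measured by single-nuclei RNA sequencing. According to the study's methods and processing notes, the authors aligned reads to mm10 with Cell Ranger and used Seurat 4.1 for filtering and clustering, removing nuclei with few genes or many mitochondrial reads. Mitochondrial and hemoglobin genes were also removed. The authors deposited raw UMI counts per gene and nucleus, and a table per nucleus with the cluster, subcluster, a second label, the percent of mitochondrial reads and a doublet score. Whether introns were counted, and with which strand setting, is not given in the sources used here. The nuclei were used as deposited. No doublet caller was run here, and the doublet score was used in an alternative.

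UMIs were summed per library and cluster. CPM, exact Poisson, Clopper-Pearson and conditional binomial intervals (95%) were computed with Python 3.11.15 and scipy 1.17.1, and the code was tested on simulated data. Positions, spans and exon lengths come from GENCODE vM21 (GRCm38). The 9 genes, the gene lists and the splits were chosen with earlier results of these data known. The text names the members, their other isoforms, the 3 highest and 3 lowest other release genes, the 5 genes most like 4 members, and markers fixed in a list; some of these results are not reported here. Clusters and subclusters were compared between genotypes where each library had at least 30 nuclei and the gene at least 20 UMIs. The alternatives were other scalings, mean CPM over nuclei, equal weights of clusters, deeper nuclei, nuclei of low doublet score, both labels in accord, leaving out a cluster, and another fold.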

Additional observations from a re-analysis of the deposited data

Results flagged for a closer look

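Syt1 and Cplx2 had log2 ratios (HET over WT) that went in opposite directions in different clusters, each with an interval that left out 0. For Syt1 the ratio was 1.44 in endo, the endothelial cluster, and -0.43 in neuron.3. The endo value rests on 82 WT and 108 HET UMIs, and 209 of the 344 nuclei of that cluster had an endothelial second label. These were 161 of 222 WT nuclei and 48 of 122 HET nuclei. They held 84 of the 118 WT UMIs of Syt1 and Syt2 together, and 23 of the 137 HET UMIs. The part of this makeup in the endo ratio was not tested. The neuron.3 value was -0.072 within neuron.3/13. For Cplx2 the ratio was 1.31 in neuron.3, from 6 WT and 32 HET UMIs, and -0.48 in neuron.4, from 128 WT and 233 HET UMIs. Within neuron.3/13 the Cplx2 ratio was 1.08, from 6 WT and 19 HET UMIs, with an interval that held 0 (-0.30 to 2.69). The difference between the clusters was not tested for either gene, since each genotype had 1 library.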

How the results depend on the processing

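No paired analysis was possible because the 2 groups share only 1 replicate number and each holds 1 library. Over 10 alternatives for each of the 9 genes, 68 of 90 log2 ratios over all nuclei and 72 of 90 in neuronal clusters moved by less than the counting interval, 22 and 18 moved further, and none of the ratios that left out 0 changed sign. Scaling to the median of all genes adds 0.10 over all nuclei and 0.095 in neuronal clusters, which turns Vamp1 and Cplx1 above 0. Counts of members past the fold stayed at 0 except below WT, where the mean over nuclei of CPM gave 1 over all nuclei (Stx1a, -0.52), and a fold of 0.25 gave 1 over all nuclei and 2 in neuronal clusters, beside 34.8% and 33.5% of all genes. The Sv2c share difference (HET minus WT) turned to 2.76 points with equal weights of clusters and 5.03 with equal weights of subclusters, and was -0.69 without neuron.5; the clusters hold unequal numbers of WT and HET nuclei. The Syt2 share difference was 1.42 points with equal weights of subclusters; the cause was not tested. Leaving out neuron.9 and subcluster 21, an alternative chosen after seeing the data, moved none of these results beyond its counting interval. Counting limits the small clusters most: Stx1a had 13 UMIs in neuron.3, and neuron.8 and neuron.6 held 9 and 5 HET nuclei.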
